A study of Mus musculus with 4 samples.

Results

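Reactive astrocyte genes are the transcripts by which an astrocyte that has met injury or inflammation is usually recognized in mouse brain. The 31 genes described here were chosen by name from lists of such genes, with earlier results of these data known, 8 from the pan-reactive list, 11 from the inflammation-type list, 10 from the ischemia-type list, and *Nes* and *Lgals3*, which mark reactive or proliferating astrocytes in general. They are 31 of the 29676 gene names on the array and were read by 42 of its 39429 probes. All 31 had a probe bright enough to be tested, 41 of the 42 probes were tested, and 38 were well above background on all 4 arrays.

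Astrocytes are the glial cells that supply neurons with metabolites, clear transmitter and ions, and seal the border of the brain at blood vessels. After stroke, infection or trauma they change shape, raise intermediate filament proteins such as GFAP and vimentin, and turn on secreted, matrix and immune genes. The pan-reactive genes were named for a rise after both systemic endotoxin and occlusion of the middle cerebral artery, whereas the inflammation-type and ischemia-type genes were named for a rise mainly after the former or the latter. Microglia that release IL-1α, TNF and C1q are a known trigger of the inflammation-type genes, and IL-6 family cytokines acting through STAT3 are a known trigger of many of the others.

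Astrocyte-enriched cultures (AECs) were mixed glial cultures of cerebral cortex from newborn ICR mice. The meninges had been removed, pups had been taken regardless of sex, and PLX3397, which blocks the receptor that microglia need to survive, had been added to the flasks before the cells were replated. Both groups therefore carried the same microglial depletion, and neither group holds cells that were never given PLX3397. The untreated cultures (2 arrays) were compared with cultures kept for 15 h under oxygen-glucose deprivation (OGD; 2 arrays), in medium without glucose and under hypoxia, with RNA taken without a return to oxygen. The methods state that wells were seeded from independent cultures of different pups, and the labels do not name the pups, so the p-values measure the spread between these samples. Cultured astrocytes grown in serum are already partly reactive, and oligodendrocyte lineage cells remain after PLX3397, so the untreated group is not a model of resting astrocytes.

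Each array held 43020 non-control spots, of which 73.7% and 73.0% were well above background in untreated cultures and 66.2% and 64.5% after OGD. The 75th percentile of the signal was 2135 and 2164 in untreated cultures but 887 and 776 under OGD. On the log2 scale the mean distance was −1.37, whereas for the control probes of spiked-in RNA it was −0.085. Signals were therefore read on 2 scales. On the first, used unless stated, each signal is divided by its array's 75th percentile and is called the relative signal. On the second, the arrays are aligned on the spiked-in probes, which lowered the median change of all 21061 genes tested from 0.16 to −1.13 on the log2 scale. In bulk cultures, fewer cells of a type and less RNA per cell cannot be told apart, and since per the labels equal masses of total RNA were labeled, neither scale reads cell number or RNA per cell. A gene was called higher or lower at an adjusted p under 0.05 (limma with Benjamini–Hochberg adjustment over 28254 probes), and a gene with several probes has the value of its brightest tested probe.

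After OGD, 20 of the 31 reactive genes rose relative to the 75th percentile (64.5%, beside 37.1% of all genes tested), 4 were called lower (12.9%, beside 27.8%) and 7 passed in neither direction. The 4 include *Slc10a6*, whose probe was not well above background on either OGD array, and without it 3 fell. On the spike-in scale the split turned: 3 rose (9.68%, beside 3.84% of all genes), 21 fell (67.7%, beside 83.3%) and 7 passed in neither direction. The 3 that rose on both scales were *Ptx3*, *Sphk1* and *Emp1*, all of the ischemia-type list. The median log2 fold change of the 31 genes was 0.71 beside 0.16 over all genes, and −0.58 beside −1.13 on the spike-in scale, a distance of 0.55 that is the same on both scales by construction, since the scales differ by 1 constant. The list of 15 general astrocyte markers had a median close to that of the 31, 0.70 (−0.59 on the spike-in scale). That distance was not the same for every way of treating dim probes: it was 0.15 with normexp background correction and 0.30 with no filter on dim probes.

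The changes were moderate in size. More than 2-fold higher were 10 of the 31 (32.3%, beside 12.7% of all genes), more than 2-fold lower were 2 (6.45%, beside 15.0%), and 0 changed more than 10-fold, a limit that 0.707% of all genes passed upward and 0.56% downward. The 2 lower genes were *Ggta1* and *Slc10a6*, and the size of the latter is not measured, which leaves 1 measured decrease of more than 2-fold, and with normexp background correction *Ggta1* was at −0.42 and 0 such decreases remained. Both OGD arrays lay above both untreated arrays for 23 genes (beside 48.6% of all genes), both lay below for 6 (beside 36.2%), and the groups overlapped for *Gbp2* and *Cd14*. In the signal as deposited, with no scaling, both OGD arrays lay above both untreated arrays for 3 genes (beside 4.78% of all genes), again *Ptx3*, *Sphk1* and *Emp1*, below for 27 (beside 90.9% of all genes), and the groups overlapped for *Fbln5*.

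**Figure D1:**
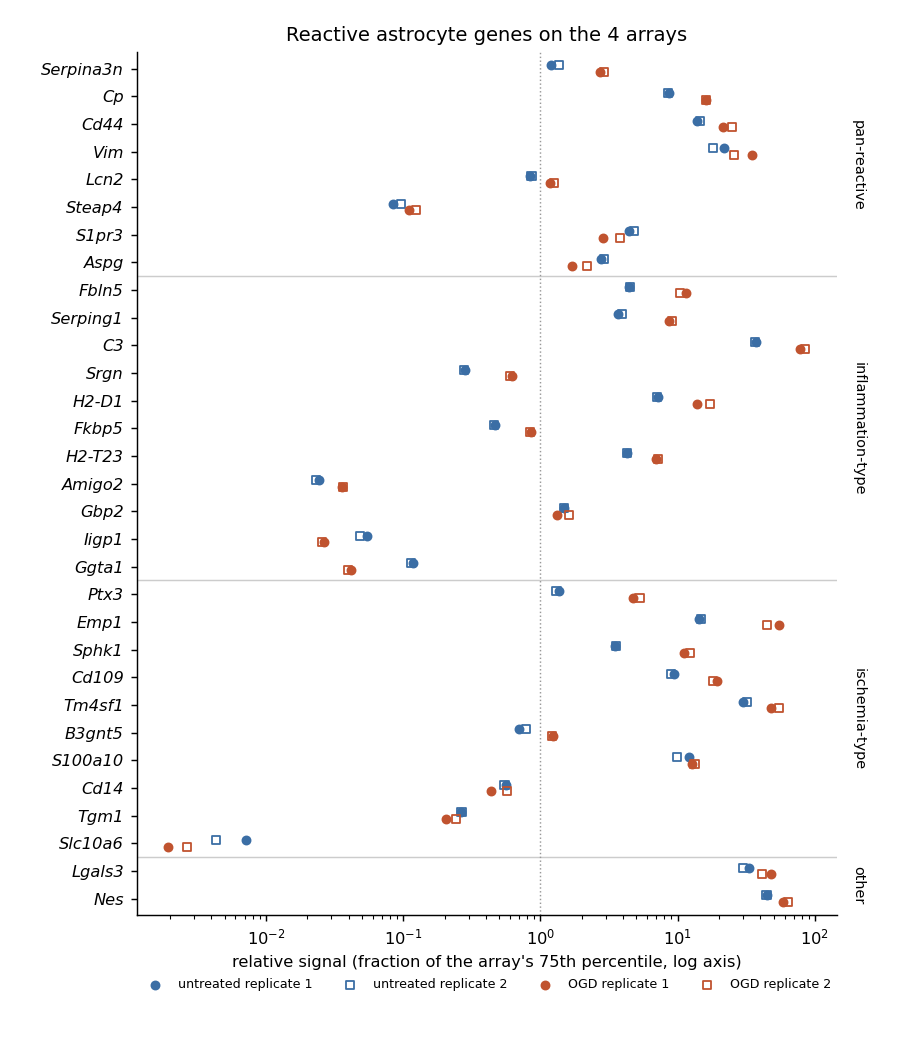
Relative signal of the 31 reactive astrocyte genes on each of the 4 arrays, as a fraction of the array's 75th percentile on a log axis, with untreated replicates in blue and OGD replicates in orange, grouped by list. Symbols of 1 color lie close together for most genes, both OGD symbols lie to the right of both untreated symbols for 23 genes and to the left for 6, and a signal is to be compared along a row only, since probes differ in brightness.

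**Figure D2:**
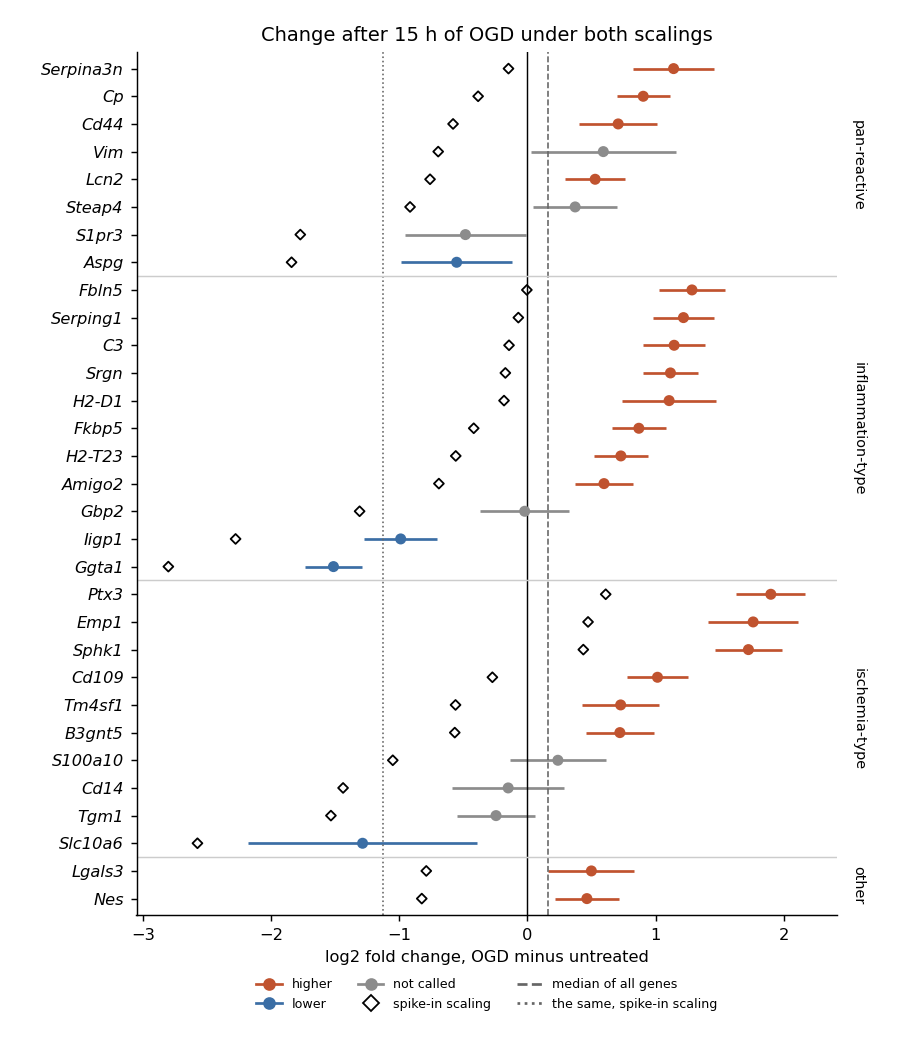
Log2 fold change of each gene, OGD minus untreated, with filled circles and 95% confidence intervals for 75th-percentile scaling, colored by call, and open diamonds for spike-in scaling. The dashed and dotted lines are the medians of all genes on the 2 scales, 0.16 and −1.13, and only *Ptx3*, *Emp1* and *Sphk1* have diamonds to the right of 0. *Slc10a6*, not well above background after OGD, is drawn at its fitted value, which is not a measured size.

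Read by the brightest probe of each gene, the ischemia-type list held the largest increases among the 31. Of these 10 genes 6 rose, *Slc10a6* was called lower and 3 passed in neither direction, with a median log2 fold change of 0.72 (−0.56 on the spike-in scale, where 3 rose and 6 fell). The shares of all genes called were those given above, 37.1% higher and 27.8% lower, and 3.84% and 83.3% on the spike-in scale. *Ptx3* encodes pentraxin 3, a secreted pattern-recognition protein that binds complement C1q and matrix. Its relative signal was 1.37 and 1.31 in untreated cultures and 4.73 and 5.27 after OGD, a log2 fold change of 1.90 (SE 0.096, adjusted p = 0.00095), or 3.73-fold. *Sphk1* encodes sphingosine kinase 1, which makes the lipid signal sphingosine 1-phosphate. Its relative signal went from 3.47 and 3.56 to 11.03 and 12.24, a log2 fold change of 1.72 (SE 0.093, adjusted p = 0.0010), and its second probe gave 1.87. *Emp1*, a tetraspan epithelial membrane protein, went from 14.4 and 14.8 to 54.5 and 45.0, a log2 fold change of 1.76 (SE 0.12, adjusted p = 0.0015). For all 3 genes the arrays of the groups lay far apart compared with the spread inside a group, and on the spike-in scale the log2 fold changes were 0.61, 0.44 and 0.47. The probe of *Ptx3* lies at chr3:66029245-66029304 of mm9, that of *Sphk1* at chr11:116397908-116397967 and that of *Emp1* at chr6:135333061-135333120, all on the plus strand. Whether these positions are in coding exons or untranslated regions is not given in the sources used here.

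STAT, HIF and NF-κB factors are known regulators of reactive and hypoxic genes. Promoter sequences of *Ptx3*, *Sphk1*, *Emp1* and *Serpina3n* are shown because, by brightest probe, these genes led the ischemia-type and pan-reactive lists. They are from RefSeq on GRCm38.p6, run from 250 bases before the annotated start to 50 bases after it, and are written on the strand of the gene. Capitals mark matches on either strand to TTCNNNGAA (STAT) or, for NF-κB, to GGG, any pair of bases and TTTCC, a pattern that takes in only some of the sites that fit the wider κB consensus. The *Ptx3* promoter at chr3:66219637-66219936 (plus strand) held neither of these letter patterns, nor ACGTG (the core bound by HIF). The *Sphk1* promoter shown, at chr11:116531587-116531886 (plus strand), belongs to 1 of 5 annotated starts and held 1 STAT match, while an overlapping start held the same match and 2 others held the HIF core. The *Emp1* promoter shown, at chr6:135362681-135362980 (plus strand), held 2 STAT matches, while another annotated start, at chr6:135367243-135367542, held none of these patterns. The *Serpina3n* promoter at chr12:104406458-104406757 (plus strand) held 1 NF-κB match. Promoters of *Fbln5*, which led the inflammation-type list, are not shown and held none of these patterns.
Ptx3: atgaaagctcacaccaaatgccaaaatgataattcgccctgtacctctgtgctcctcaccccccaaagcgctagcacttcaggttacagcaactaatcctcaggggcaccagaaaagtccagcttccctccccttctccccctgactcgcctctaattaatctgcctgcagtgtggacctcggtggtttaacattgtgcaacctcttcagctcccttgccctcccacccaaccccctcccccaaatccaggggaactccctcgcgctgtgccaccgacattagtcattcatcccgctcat
Sphk1: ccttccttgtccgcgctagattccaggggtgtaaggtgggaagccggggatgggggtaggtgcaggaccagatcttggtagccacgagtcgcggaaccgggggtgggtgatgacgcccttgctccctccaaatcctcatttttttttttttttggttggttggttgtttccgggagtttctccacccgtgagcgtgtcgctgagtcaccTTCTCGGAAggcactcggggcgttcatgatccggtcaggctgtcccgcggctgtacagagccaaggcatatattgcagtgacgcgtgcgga
Emp1: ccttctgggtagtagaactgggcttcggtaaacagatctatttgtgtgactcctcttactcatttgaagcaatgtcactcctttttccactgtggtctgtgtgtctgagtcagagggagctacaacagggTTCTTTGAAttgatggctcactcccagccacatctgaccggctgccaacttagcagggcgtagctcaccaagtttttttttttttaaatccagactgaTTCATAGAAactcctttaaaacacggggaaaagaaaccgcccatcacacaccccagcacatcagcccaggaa
Serpina3n: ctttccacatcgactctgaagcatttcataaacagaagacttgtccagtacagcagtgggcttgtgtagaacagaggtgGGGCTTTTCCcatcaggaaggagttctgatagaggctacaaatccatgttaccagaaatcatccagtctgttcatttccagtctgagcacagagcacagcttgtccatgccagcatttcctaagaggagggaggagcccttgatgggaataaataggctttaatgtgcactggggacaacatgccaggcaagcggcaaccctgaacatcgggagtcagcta

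Promoters were found for 26 of the 31 genes. Of these, 4 held the STAT letters (15.4%, beside 9.55% of the 27025 genes with a promoter), namely *Emp1*, *Sphk1*, *Steap4* and *Tgm1*. The HIF core was held by 7 (26.9%, beside 21.8%), and the NF-κB letters by *Serpina3n*, *Steap4* and *Vim* (11.54%, beside 1.89%). A match is a description of the letters in this window and not a site of binding. Of the genes with the STAT letters, *Emp1* and *Sphk1* rose, *Steap4* was at 0.37, just outside the limit, and *Tgm1* was at −0.25. Of the genes with the HIF core, *B3gnt5*, *Cd44*, *Fkbp5*, *Sphk1* and *Srgn* rose. The others with the core, *S1pr3* at −0.48 and *Tgm1*, passed in neither direction.

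Among the other ischemia-type genes, *Cd109*, a membrane protein that binds TGF-β, went from 9.44 and 8.99 to 19.21 and 18.03, a log2 fold change of 1.01 (SE 0.085). *Tm4sf1*, a small transmembrane protein of moving and dividing cells, went from 29.8 and 32.1 to 48.1 and 54.5, and *B3gnt5*, a glycosyltransferase that starts the lacto-series glycolipids, from 0.701 and 0.787 to 1.23 and 1.22. Their log2 fold changes were 0.73 (adjusted p = 0.0070) and 0.72 (adjusted p = 0.0055), and all 3 genes lay below 0 on the spike-in scale, at −0.27, −0.56 and −0.57. With quantile normalization *Tm4sf1* was at −0.11 and not past the test, and without untreated replicate 1 its adjusted p was 0.058. *S100a10*, the partner of annexin A2, had an interval from −0.14 to 0.61 and did not pass the test, nor did *Tgm1*, a transglutaminase that crosslinks proteins, with an interval from −0.55 to 0.06. *Cd14*, the co-receptor for endotoxin, was at 0.562 and 0.547 in untreated cultures and 0.439 and 0.568 after OGD. Its groups overlapped, with an interval from −0.58 to 0.28. On the spike-in scale *S100a10*, *Tgm1* and *Cd14* all fell, at −1.05, −1.53 and −1.44, where 83.3% of all genes fell. Without OGD replicate 2, *Tgm1* and *Cd14* passed on the lower side, at −0.36 and −0.34, and *Tgm1* also with the percentile over well-measured probes, at −0.40. The transporter gene *Slc10a6* passed the test on the lower side (adjusted p = 0.028), but its probe was not well above background on either OGD array and the bound gave no fold, so a decrease was not measured. With normexp background correction, which moves dim probes upward, its value was 1.01, on the higher side.

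The inflammation-type list held the most genes that rose. Of its 11 genes 8 rose, 2 fell and *Gbp2* passed in neither direction, beside 37.1% of all genes higher and 27.8% lower, with a median log2 fold change of 0.87. With spike-in scaling 0 of the 11 rose and 6 fell (beside 3.84% and 83.3% of all genes), with a median of −0.42. *C3* encodes complement component 3 and is widely used as a marker of inflammatory astrocytes. Read by 10 spots of its brightest probe (chr17:57343416-57343475 of mm9, minus strand), it was at 37.0 and 36.8 in untreated cultures and at 78.1 and 85.1 after OGD, a log2 fold change of 1.14 (SE 0.087, adjusted p = 0.0017), and its second probe gave 1.13. With quantile normalization the brightest *C3* probe was at 0.25 and did not pass the test (adjusted p = 0.105). *Serping1*, the inhibitor of the complement C1 protease, went from 3.70 and 3.93 to 8.64 and 9.09, a log2 fold change of 1.22 (SE 0.084, adjusted p = 0.0015). Both complement genes were thus a little over 2-fold higher, with no overlap between groups, and at −0.14 and −0.071 on the spike-in scale, where they did not pass the test. *Fbln5*, an elastic fiber protein, went from 4.44 and 4.49 to 11.45 and 10.31, which was the largest increase of this list at 2.43-fold (log2 fold change 1.28, SE 0.092). *Srgn*, a proteoglycan of secretory granules, went from 0.282 and 0.279 to 0.617 and 0.5998, or 2.17-fold. *Fkbp5*, a cochaperone of the glucocorticoid receptor and a target of that receptor, went from 0.464 and 0.462 to 0.852 and 0.839, a log2 fold change of 0.87. *Amigo2*, an adhesion protein, had a low signal that was well above background on all arrays, at 0.0246 and 0.0232 against 0.0356 and 0.0367. Its log2 fold change was 0.60 (adjusted p = 0.0059), a call that was lost without untreated replicate 2. With spike-in scaling *Fbln5* and *Srgn* were at −0.0046 and −0.17 without passing the test, whereas *Fkbp5* and *Amigo2* fell, by 0.42 and 0.69.

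The genes of antigen presentation and of the interferon response in this list did not move together. *H2-D1*, a classical MHC class I heavy chain, went from 7.22 and 7.11 to 13.9 and 17.1, a log2 fold change of 1.11 (SE 0.13, adjusted p = 0.0041), and *H2-T23*, a nonclassical one, from 4.26 and 4.28 to 6.98 and 7.18, a log2 fold change of 0.73 (SE 0.075, adjusted p = 0.0031). On the spike-in scale they were at −0.18 and −0.56. *Gbp2*, an interferon-induced GTPase, was at 1.49 and 1.48 in untreated cultures and at 1.33 and 1.61 after OGD, with overlapping groups and an interval from −0.37 to 0.33. On the spike-in scale *Gbp2* fell, at −1.31. *Iigp1*, another GTPase of the interferon response, went from 0.0549 and 0.0483 to 0.0263 and 0.0256, a log2 fold change of −0.99 (SE 0.10, adjusted p = 0.0030), and its second probe, not well above background on either OGD array, was at least 2.15-fold lower by its bound. With normexp background correction the log2 fold changes of the probes were 0.30 and 0.67. That setting moves dim probes upward. *Cx3cr1*, *C1qc* and *Ptprc*, not well above background on either OGD array, were at 1.13, 1.12 and 1.09 with it. The normexp values therefore cannot tell the direction of *Iigp1*, and the size of its decrease, the bound included, depends on how dim signal is handled. *Ggta1*, the enzyme that adds the α-galactosyl sugar to glycoproteins, fell on both scales and under every background correction tried. Its relative signal went from 0.118 and 0.114 to 0.0415 and 0.0396, a log2 fold change of −1.51 (SE 0.080, adjusted p = 0.0010), which was the largest decrease of the 31 among genes well above background on all arrays, and it was at −0.42 with normexp. The MHC, *Gbp2*, *Iigp1* and *Serpina3n* genes have close relatives in the mouse genome, and reading of relatives by these probes was not tested.

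The 8 pan-reactive genes divided into 4 that rose, 1 that fell and 3 that passed in neither direction, with a median log2 fold change of 0.56. The 4 of 8 that rose stand beside 37.1% of all genes. With spike-in scaling 0 of the 8 rose and 7 fell, a share close to the 83.3% of all genes, with a median of −0.73. *Serpina3n*, a secreted serine protease inhibitor that is among the most often used reactive markers, went from 1.18 and 1.37 to 2.71 and 2.90, a log2 fold change of 1.14 (SE 0.11, adjusted p = 0.0027). *Lcn2*, the iron-siderophore carrier lipocalin 2, went from 0.833 and 0.860 to 1.18 and 1.26, a smaller log2 fold change of 0.53 (SE 0.084, adjusted p = 0.0087). *Cp*, the ferroxidase ceruloplasmin, went from 8.57 and 8.56 to 16.03 and 16.00, a log2 fold change of 0.90 (SE 0.074, adjusted p = 0.0020). All of these lay below 0 on the spike-in scale, at −0.15, −0.76 and −0.38, the first without passing the test. Leaving out untreated replicate 1 or 2 raised the adjusted p of *Lcn2* to 0.078 or 0.069. *Steap4*, a metalloreductase, went from 0.0843 and 0.0963 to 0.110 and 0.123 and missed the limit (log2 fold change 0.37, adjusted p = 0.053). It passed on the higher side in 5 of the alternatives, among them normexp (0.66, adjusted p = 0.00064), which moves dim probes upward. With spike-in scaling it fell by 0.92 (adjusted p = 0.0023).

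*Vim*, the intermediate filament vimentin, had the largest SE of the 31 (0.20) apart from *Slc10a6* (0.32). It was at 21.8 and 17.9 in untreated cultures and at 34.6 and 25.6 after OGD, which gave a log2 fold change of 0.59 and an interval from 0.03 to 1.16 (adjusted p = 0.064). Its direction turned with quantile normalization, at −0.12, and with spike-in scaling, where it fell by 0.70 (adjusted p = 0.021). It passed on the higher side in 6 of the alternatives, among them normexp (0.52, adjusted p = 0.025) and leaving out OGD replicate 2 (0.81, adjusted p = 0.027). *Aspg* and *S1pr3*, also of this list, had negative values on both scales, and on the spike-in scale both fell, by 1.84 for *Aspg* and 1.77 for *S1pr3*. *Aspg*, an asparaginase, went from 2.74 and 2.88 to 1.69 and 2.18 (log2 fold change −0.55, adjusted p = 0.040), and *S1pr3*, a receptor for the sphingosine 1-phosphate that *Sphk1* makes, from 4.43 and 4.77 to 2.85 and 3.78 (log2 fold change −0.48, adjusted p = 0.069). The call of *Aspg* was lost without untreated replicate 1, without untreated replicate 2 and without OGD replicate 1, with adjusted p of 0.13, 0.17 and 0.17. The methods' t-test also lost it (adjusted p = 0.15 after adjustment). *S1pr3* passed in 7 of the alternatives, with normexp (−0.55, adjusted p = 0.0036), quantile normalization, median scaling, the percentile over well-measured probes, spike-in scaling, limma with trend and robust prior, and without OGD replicate 2 (−0.69, adjusted p = 0.013).

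*Cd44*, the receptor for hyaluronan, stood apart among the 8 genes with several tested probes, because its probes gave changes of very different size. All 4 probes, placed by the files on the minus strand of chromosome 2 of mm9, rose relative to the 75th percentile. The brightest, P2064043 at chr2:102651398-102651457, is also the one nearest the 3′ end and rose least, from 13.9 and 14.4 to 21.5 and 25.0 (log2 fold change 0.71, SE 0.11, adjusted p = 0.0080). P2166501 at chr2:102654278-102654337 lies 2880 bases upstream and went from 2.82 and 3.08 to 17.9 and 21.4 (log2 fold change 2.73, SE 0.13, adjusted p = 0.00088). P2166486 at chr2:102672645-102672704, 21247 bases upstream, gave 1.54 (SE 0.32, adjusted p = 0.018), and P2166488 at chr2:102677971-102678030, 26573 bases upstream, gave 2.05 (SE 0.22, adjusted p = 0.0035). The first 30 of the 60 bases of each probe are printed in 5′ to 3′ order because the size of the *Cd44* change turns on which probe is read.
P2064043: tcagaggcagctggcatcctttgttttgtt
P2166501: gacgagacccggaatctgcagagtgtggac
P2166486: tacattacatggagagccggaagaagacga
P2166488: acagatttcttcgacccaatctcacatcca

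Within each array, which removes any scaling between arrays, the log2 signal of P2166501 minus that of P2064043 was −2.30 and −2.23 in untreated cultures and −0.26 and −0.22 after OGD. The difference between the probes thus changed by 2.03, against SDs of 0.054 and 0.030 inside the groups (n = 2 each), a size that was noticed in these data and has no test of its own. On the spike-in scale the sign depended on the probe, with −0.58 for P2064043 (adjusted p = 0.0079) against 1.45 for P2166501 (adjusted p = 0.00048) and 0.76 for P2166488 (adjusted p = 0.015), and 0.25 for P2166486, which did not pass. The probes thus changed unequally relative to each other, and whether any of them also reads another transcript was not tested. For the 7 other probe pairs of the 31 genes the log2 fold changes differed by 0.018 to 0.48, and in all 8 genes with several tested probes the probes moved in 1 direction. The call of the brightest *Cd44* probe was lost without untreated replicate 1 (adjusted p = 0.063), without untreated replicate 2 (adjusted p = 0.058), with the methods' t-test after adjustment (adjusted p = 0.052) and with quantile normalization, where it was at 0.07 (adjusted p = 0.62).

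**Figure D3:**
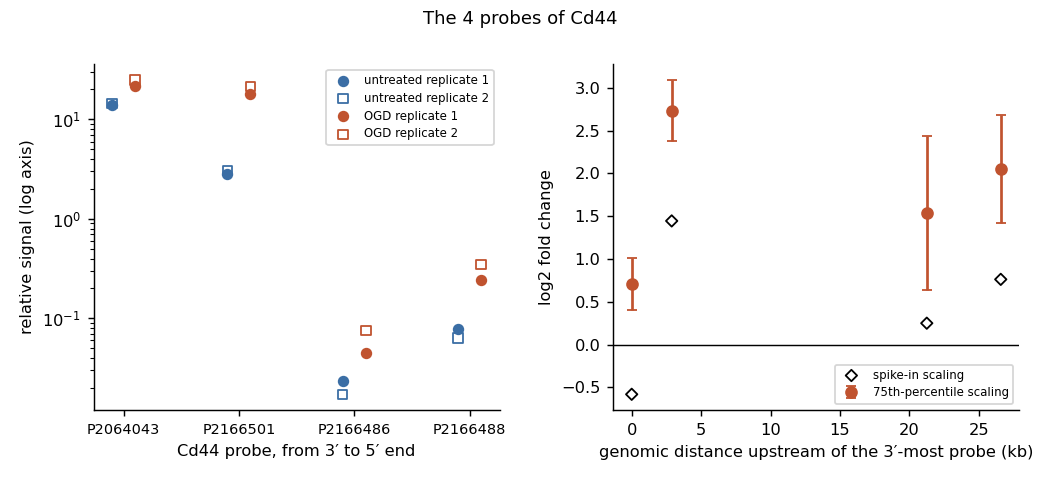
Left, relative signal (log axis) of the 4 *Cd44* probes on each array, in order from the 3′ to the 5′ end, and right, their log2 fold change with 95% confidence intervals for 75th-percentile scaling (filled circles) and for spike-in scaling (diamonds) against genomic distance upstream of the 3′-most probe in kb. The 3′-most probe changed least, at 0.71, and the probe 2880 bases upstream of it most, at 2.73.

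The progenitor filament gene *Nes* and the galectin gene *Lgals3*, which encodes a secreted sugar-binding protein, both rose by little. *Nes* was at 44.4 on both untreated arrays and at 58.4 and 64.1 after OGD (log2 fold change 0.46, SE 0.088, adjusted p = 0.014), and *Lgals3* went from 32.8 and 29.7 to 47.6 and 40.9 (log2 fold change 0.50, SE 0.12, adjusted p = 0.026). Both fell on the spike-in scale, at −0.82 and −0.79, and with quantile normalization they were at −0.44 and −0.33. Their calls were also lost with the percentile over well-measured probes, with adjusted p of 0.0504 and 0.060, without untreated replicate 1, with adjusted p of 0.098 and 0.086, and without untreated replicate 2, with adjusted p of 0.10 and 0.15. The call of *Lgals3* was lost as well with the methods' t-test (adjusted p = 0.10) and without OGD replicate 1 (adjusted p = 0.052).

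**Figure D4:**
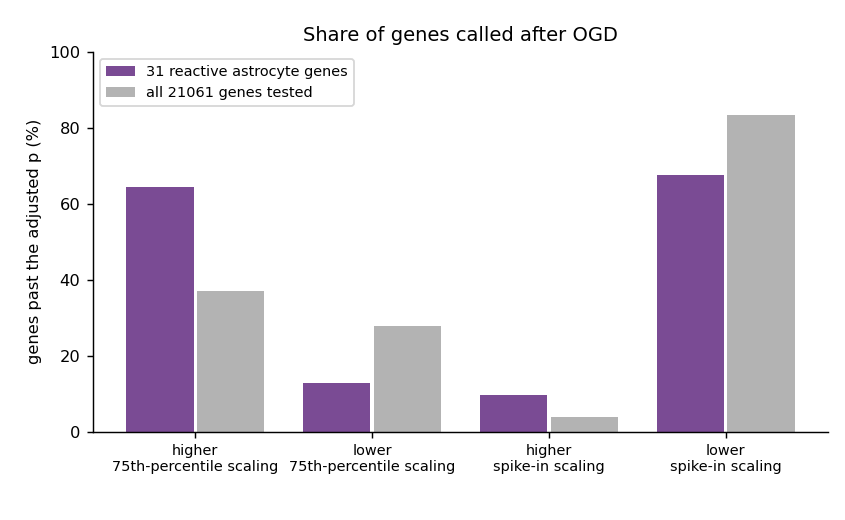
Share of the 31 reactive astrocyte genes (purple) and of all 21061 genes tested (gray) called higher or lower after OGD at an adjusted p under 0.05, in percent, for 75th-percentile and for spike-in scaling. With the first, 64.5% of the 31 and 37.1% of all genes were higher, and with the second, 67.7% and 83.3% were lower.

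The other genes of the same reactive lists were read for context. Of 10 such genes 9 were tested, 8 rose and *Osmr*, the oncostatin M receptor, fell by 0.53 on the log2 scale, beside 37.1% of all genes higher and 27.8% lower. Their median log2 fold change was 0.78, and −0.50 on the spike-in scale, where 2 rose and 5 fell (beside 3.84% and 83.3% of all genes). Much larger than any change among the 31 was that of *Ptgs2*, the inducible cyclooxygenase, which went from 0.173 and 0.167 to 4.39 and 4.89, or 27.3-fold (log2 fold change 4.77, SE 0.094). *Cxcl10*, an interferon-induced chemokine, rose 4.86-fold (2.28, SE 0.15). *Clcf1*, a cytokine of the IL-6 family, and *Hspb1*, a small heat shock protein, rose a little over 2-fold, with log2 fold changes of 1.05 and 1.03. On the spike-in scale *Ptgs2* and *Cxcl10* stayed higher, at 3.48 and 0.99, and *Clcf1* and *Hspb1* were at −0.24 and −0.26.

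The genes of the signals that are known to induce reactive genes moved in both directions. Of 19 such genes 14 were tested, 7 rose and 4 fell, beside the same shares of all genes, with a median log2 fold change of 0.06. On the spike-in scale 2 rose and 11 fell, with a median of −1.23. The probes of *Il1a*, *Il1b*, *Tnf* and *Osm*, which encode cytokines made mainly by microglia and other myeloid cells, were not well above background on any array. In contrast, *Il6* went from 0.0441 and 0.0378 to 1.21 and 1.45, or 32.5-fold (log2 fold change 5.02, SE 0.15), and *Lif*, of the same cytokine family, rose 7.79-fold from 0.0317 and 0.0326 to 0.198 and 0.316. *Socs3*, which STAT3 induces and which inhibits it in turn, fell from 6.31 and 6.62 to 1.15 and 1.498 (−2.30, SE 0.16), and *Lifr*, the receptor for LIF, fell from 1.17 and 1.20 to 0.272 and 0.278 (−2.11, SE 0.076). *Il1r1*, the receptor for IL-1, fell by 1.66, whereas *Nfkbia*, the NF-κB inhibitor that NF-κB itself induces, rose by 1.55. The signs of *Il6*, *Lif*, *Socs3*, *Lifr*, *Il1r1* and *Nfkbia* were the same on the spike-in scale, at 3.73, 1.67, −3.59, −3.40, −2.95 and 0.27, the last without passing the test.

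Markers of the cells that the cultures could hold were read beside these results. The astrocyte list was well expressed, with a summed relative signal of 253 and 225 in untreated cultures and 360 and 365 after OGD, and 8 of its 15 genes rose and 2 fell, beside 37.1% and 27.8% of all genes. The 2 that fell were *Sox9* and *Fgfr3*, at −1.52 and −0.54 on the log2 scale (−2.81 and −1.83 with spike-in scaling). With spike-in scaling, where 3.84% of all genes rose and 83.3% fell, the tested genes that rose and fell were 0 and 11 for the astrocyte list, 1 and 12 for microglia, 0 and 6 for fibroblasts, 0 and 4 for endothelium, 0 and 6 for neurons and 0 and 7 for oligodendrocytes. *Gfap*, the astrocyte filament gene that is also a reactive marker, went from 22.2 and 21.4 to 35.8 and 36.4 (log2 fold change 0.72, and −0.56 on the spike-in scale). Of the 16 microglia markers 15 were tested, 6 rose and 2 fell, and their summed relative signal went from 5.44 and 5.05 to 11.9 and 11.6, of which *Cd68*, a lysosomal protein, made up 0.542 and 0.561 before and 4.85 and 4.87 after OGD. The others divided. *Csf1r*, the receptor that PLX3397 blocks, went from 0.110 and 0.102 to 0.223 and 0.244, and *Csf1r*, *Aif1* and *C1qb* rose 2.21-fold, 2.05-fold and 1.63-fold, at −0.15, −0.26 and −0.59 on the spike-in scale. *Tmem119* and *Trem2* fell, by 0.88 and 0.93 on the log2 scale, but were at 0.18 and 0.67 with normexp background correction, and *Trem2* was well above background on 1 of the OGD arrays. *P2ry12* did not pass the test, and *Cx3cr1*, *C1qc* and *Ptprc* were not well above background on either OGD array. Of 7 fibroblast markers tested 1 rose and 2 fell, with a median of −0.26. The 6 of them with a value on every array (the *Col1a1* spot was an outlier on OGD replicate 1) summed to 21.5 and 19.7 against 31.7 and 29.5, a sum raised by *Ogn*, from 8.56 and 8.65 to 20.8 and 21.2, whereas *Pdgfrb* fell 5.35-fold. The endothelial list summed to 1.75 and 1.82 against 1.46 and 1.33, with *Cldn5*, *Tek*, *Emcn* and *Tie1* not well above background on any array, and the neuron list to 8.66 and 8.27 against 9.38 and 9.05. Of 4 endothelial markers tested 0 rose and 2 fell, with a median of −0.21. Of 7 neuron markers tested 3 rose and 2 fell, with a median of −0.29. The oligodendrocyte list summed to 29.1 and 29.3 against 26.2 and 25.4, of which *Olig1* made up 18.9 and 18.9 against 14.1 and 12.8. Of its 8 genes 3 rose and 3 fell, among them *Olig2*, 5.68-fold lower, and *Mbp*, 2.28-fold higher. *Cd14*, *Srgn*, *C3*, *Lgals3* and the MHC genes are also expressed by microglia, and the part of other cells in the changes of the 31 genes was not tested.

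**Figure D5:**
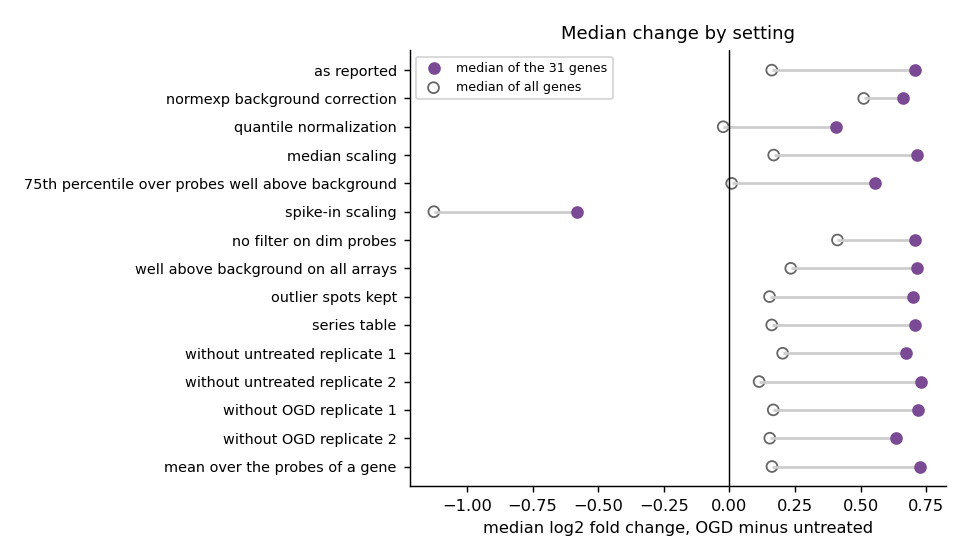
Median log2 fold change, OGD minus untreated, of the 31 reactive astrocyte genes (filled) and of all genes tested (open) under each setting. The median of the 31 lay to the right of that of all genes in every setting drawn, by 0.15 with normexp background correction and by 0.55 as reported. Median, spike-in and well-measured-percentile scaling add 1 constant to all genes and cannot change that distance, and the median of the 31 was below 0 with spike-in scaling, at −0.58.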

How the data were processed

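RNA of 2 untreated and 2 OGD (15 h) AEC samples was amplified and labeled with Cy3, and each sample was hybridized to its own array. Per the labels and file headers, the authors deposited spot intensities from Feature Extraction 11.5.1.1, whose processed signal is background-subtracted inside an array and not normalized across arrays. The series table repeats that intensity (largest difference 0). Positions (mm9) and gene names are those of the array's design.

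Control and outlier spots (119 to 132 an array) were dropped, and no spot was saturated (0 on each array). The log2 signals were averaged over the spots of a probe, and the 75th percentile of each array was then subtracted, as in the methods. A probe counted as bright on an array when a fraction of 0.5 or more of its spots carried the software's mark for well above background, and the 28254 probes bright on every array of 1 group or the other were tested. The test was limma 3.58.1 (lmFit, eBayes; R 4.3.3) with Benjamini–Hochberg adjustment, in place of the t-test named in the methods. The tested probe with the highest mean stood for its gene, and intervals are at 95%. The precision of all values is limited by having 2 arrays per group, and an exact permutation test could not go below p = 0.333 (two-sided). For a probe dim throughout a group a bound is given. It sets the bright group's mean against a dim-group mean in which each array counts with its lowest well-measured signal or the probe's own, whichever was higher. The 4 arrays shared 1 slide and 1 scan, so no batch could be fitted.

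The members, the lists and the motifs were chosen with earlier results of these data known. All 31 members are named. Of the remaining genes of the reactive lists and of the upstream signals, up to 10 are named, those with the largest change among genes past the adjusted p and well above background on all arrays, and any other gene was named after its values were seen. Markers of astrocytes, microglia, fibroblasts, endothelium, neurons and oligodendrocytes were also read. The settings tried in addition were the t-test of the methods, limma's trend and robust options, a replicate block, normexp (offset 50), quantile normalization, scaling on the median, on the percentile over well-measured probes or on 9 of the 10 spiked-in control probes, a weaker or stricter filter for dim probes, keeping outlier spots, using the series table, leaving out each array, limits of 2-fold and 10-fold, and averaging the probes of a gene. Promoters came from RefSeq (GRCm38.p6). The steps were tested on simulated data. Python 3.11.15 with pandas 2.3.3, numpy 2.4.6 and matplotlib 3.10.9 made the tables and figures. PCR, imaging and cell death assays were not analysed here.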

Additional observations from a re-analysis of the deposited data

How the results depend on the processing

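The 31 log2 fold changes were recomputed under 17 alternatives, 526 values in all, of which 447 kept their direction and side of the threshold, 30 turned, 25 lost the call and 24 gained it. Spike-in scaling turned 20 of the 30: *Amigo2* −0.69, *B3gnt5* −0.57, *C3* −0.14, *Cd109* −0.27, *Cd44* −0.58, *Cp* −0.38, *Fbln5* −0.0046, *Fkbp5* −0.42, *H2-D1* −0.18, *H2-T23* −0.56, *Lcn2* −0.76, *Lgals3* −0.79, *Nes* −0.82, *S100a10* −1.05, *Serpina3n* −0.15, *Serping1* −0.071, *Srgn* −0.17, *Steap4* −0.92, *Tm4sf1* −0.56 and *Vim* −0.70. Normexp turned *Iigp1* (0.30), *Tgm1* (0.0040) and *Slc10a6* (1.01), quantile normalization *Vim* (−0.12), *S100a10* (−0.27), *Tm4sf1* (−0.11), *Nes* (−0.44) and *Lgals3* (−0.33), and leaving out OGD replicate 1 *Gbp2* (0.12) and *Cd14* (0.036), whose values with 1 array left out ranged from −0.16 to 0.12 and from −0.34 to 0.036. The cause was not tested. The median of the 31 genes, 0.71 as reported, was 0.41 with quantile normalization, 0.55 with the percentile over probes well above background and −0.58 with spike-in scaling, and 0.64 to 0.73 with 1 array left out.

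Of the 20 genes higher and 4 lower, spike-in scaling left 3 and gave 21, a 2-fold limit left 10 and 2, a 10-fold limit 0 and 0, and the methods' t-test 18 and 2. With 1 array left out there were 15 to 21 higher and 2 to 7 lower, 2 without untreated replicate 1 and 7 without OGD replicate 2. Of all probes 18354 passed, 12680 with the methods' t-test after adjustment, 8108 over 2-fold, 377 over 10-fold, and 10731 to 19161 with 1 array left out (11551 without untreated replicate 1 and 10731 without untreated replicate 2). A lone array was assumed to vary like the other group. The replicate numbers did not pair the samples (correlation of deviations −0.057), and with the replicate block 22 genes were higher, 3 lower and 17207 probes passed. A slide block could not be fitted. Low signal limits *Slc10a6* and the second *Iigp1* probe, which were not well above background on either OGD array.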
